A study of Mus musculus with 36 samples.

Results

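The 9 genes described here, Tek, Tie1, Flt1, Kdr, Cldn5, Cdh5, Esam, Pecam1 and Abcb1a, are genes known from the endothelial cells that line brain blood vessels. They were chosen by name, and every probe set that the annotation of the array assigns to one of them alone was taken. This gave 14 of 45037 probe sets (Affymetrix controls not counted): 4 for Flt1, 2 each for Cdh5 and Abcb1a, and 1 for each of the other genes. Of these, 11 were detected, with an intensity above 99.7 on at least 9 of the 36 arrays, as 27212 probe sets of the whole array were, and 7 of the 9 genes had at least 1 detected probe set.

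The arrays were Affymetrix chips for the mouse genome, and the values are linear signal intensities that had been normalized between arrays. Adult male mice, 8 to 10 weeks old, of the inbred strains C57BL/6J, 129P3/J, SWR/J and DBA/2J received saline, acute morphine or chronic morphine, which makes 12 groups of 3 arrays. All groups were injected on one schedule, under the skin, and the tissue was the front part of the caudate and putamen with the nucleus accumbens, taken 4 hours after the last injection. Each array carried RNA pooled from 3 mice, so a group stands for 9 mice and the spread between arrays is a spread between pools. Saline groups had saline throughout. Acute groups had saline for 4 days and then 1 dose of 20 mg/kg morphine hydrochloride. Chronic groups were injected with morphine 3 times daily for 4 days. The dose was 10 mg/kg at first, 20 mg/kg from day 2 and 40 mg/kg from day 3, and 1 more injection of 40 mg/kg followed on day 5. Acute and chronic groups therefore differ in the last dose as well as in the days of exposure, and both are set against the same saline arrays.

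Endothelial cells of the brain form the blood-brain barrier: tight and adherens junctions seal the gaps between them, and transporters and efflux pumps in their membranes decide which solutes and drugs pass. Receptor tyrosine kinases of 2 families control their growth and stability, the angiopoietin receptor Tek (also called Tie2) with its partner Tie1, and the vascular endothelial growth factor (VEGF) receptors Flt1 (VEGFR1) and Kdr (VEGFR2). In a homogenate of striatum, these cells are a small minority among neurons and glia, and fewer endothelial cells cannot be told apart from less RNA per endothelial cell.

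ETS transcription factors, several of which are typical of endothelial cells, bind DNA around the letters GGAA. The 250 bases upstream of the start of the 4 receptor genes are shown because the morphine differences given later lie in 3 of these genes. The sequences are from RefSeq, build GRCm38.p6, read 5′ to 3′ on the strand of the gene, and capitals mark each GGAA or its reverse complement TTCC. Tek lies at chr4:94739039-94739288 on the plus strand, Tie1 at chr4:118489850-118490099 on the minus strand, Flt1 at chr5:147726012-147726261 on the minus strand and Kdr at chr5:75978456-75978705 on the minus strand.
Tek: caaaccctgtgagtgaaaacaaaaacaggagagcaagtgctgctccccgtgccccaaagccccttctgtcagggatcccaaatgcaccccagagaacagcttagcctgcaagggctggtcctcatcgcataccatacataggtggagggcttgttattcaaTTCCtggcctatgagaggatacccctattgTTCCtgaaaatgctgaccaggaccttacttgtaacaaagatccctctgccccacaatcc
Tie1: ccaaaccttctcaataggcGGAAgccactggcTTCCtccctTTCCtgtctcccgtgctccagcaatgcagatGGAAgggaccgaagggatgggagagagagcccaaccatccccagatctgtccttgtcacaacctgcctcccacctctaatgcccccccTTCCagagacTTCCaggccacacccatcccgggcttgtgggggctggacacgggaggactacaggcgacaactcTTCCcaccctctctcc
Flt1: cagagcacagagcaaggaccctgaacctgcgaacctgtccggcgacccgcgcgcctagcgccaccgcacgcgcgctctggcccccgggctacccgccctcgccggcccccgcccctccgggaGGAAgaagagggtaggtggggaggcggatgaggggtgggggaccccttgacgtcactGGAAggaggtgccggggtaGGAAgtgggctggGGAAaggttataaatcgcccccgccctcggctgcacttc
Kdr: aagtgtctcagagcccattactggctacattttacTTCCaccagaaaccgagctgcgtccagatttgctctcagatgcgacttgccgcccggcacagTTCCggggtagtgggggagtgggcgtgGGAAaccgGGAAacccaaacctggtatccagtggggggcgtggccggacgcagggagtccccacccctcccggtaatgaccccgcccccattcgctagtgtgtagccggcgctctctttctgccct
The window of Tek held 2 matches, that of Tie1 held 7, and those of Flt1 and Kdr held 4 each. The matches of Flt1 crowd into the 128 bases before the start, and those of Kdr lie between 215 and 118 bases before it. Of the other members, Abcb1a had 5 matches, Cldn5 had none, and no promoter was found in the table for Cdh5, Esam or Pecam1. Such short letters are common: 93.4% of 32851 mouse promoter windows of this length hold at least 1, with a median of 3. The longer form AGGAAG was present in 29.5% of all windows, and among the members in Flt1 and Abcb1a (2 matches each) and Tie1 (1 match). Both were searched on both strands, and a match is no evidence of a bound factor.

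One array stands apart and touches several results. On the array of C57BL/6J saline replicate 1 the 3′ control probe set of Gapdh exceeded the 5′ one by 0.72 on the log2 scale, against -0.11 to 0.12 on the other 35 arrays (a measure of how far labelled RNA reached towards the 5′ end). Results that rest on this array are given with and without it. Striatal neuron markers were high throughout (the mean log2 level of 7 medium spiny neuron genes was 10.97 to 11.37 on every array). That of 6 cortical excitatory neuron genes varied more, from 7.36 to 9.37, and was lowest in the C57BL/6J saline group (mean 7.83). Of a further list of 35 endothelial genes, 27 were detected.

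The defining endothelial genes were measured with unequal strength. Tie1 (1416238_at) was above the detection limit on 0 arrays, with intensities of 36.9 to 74.2, as was Pecam1 (1421287_a_at, 44.1 to 97.5), an adhesion molecule at endothelial cell borders. One probe set of Cdh5 (1422047_at) passed on 2 arrays, with 39.7 to 107. The other Cdh5 probe set (1433956_at) was just inside the filter, on 11 arrays, and Flt1 1440926_at passed on 21 and Abcb1a 1419758_at on 32 arrays. The remaining 8 detected probe sets passed on all 36. In a fit with no filter none of the 3 undetected probe sets passed a test, with log2 differences after acute morphine of -0.21 for Tie1 (adjusted p = 0.331), 0.31 for Pecam1 (adjusted p = 0.114) and -0.39 for Cdh5 1422047_at (adjusted p = 0.0927, limma).

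Tek was lower after acute morphine in the mean of the 4 strains. It encodes the receptor through which angiopoietins keep vessels quiescent. In C57BL/6J its intensity was 199, 188 and 194 on the saline arrays, 142, 145 and 141 after acute morphine, and 132, 153 and 131 after chronic morphine. Every morphine array of this strain lay below every saline array. In SWR/J the values were 148, 152 and 150 with saline, 114, 110 and 130 after acute and 131, 161 and 138 after chronic morphine. Here the acute arrays lay below the saline arrays, whereas the chronic arrays overlapped with them. DBA/2J had 170, 175 and 150 with saline, 145, 132 and 150 after acute and 154, 164 and 164 after chronic morphine. 129P3/J had 143, 147 and 169, then 147, 149 and 136, then 148, 173 and 134. In 129P3/J the 3 groups overlapped.

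The mean of the 4 strains' log2 differences for Tek was -0.27 (SE 0.048, 95% CI -0.37 to -0.17; limma adjusted p = 0.00122), so that Tek fell by 17.1%. Within strains it was -0.44 in C57BL/6J (adjusted p = 0.0397), -0.35 in SWR/J, -0.21 in DBA/2J and -0.08 in 129P3/J. After chronic morphine the mean difference was -0.15 (95% CI -0.25 to -0.05) and missed the threshold (adjusted p = 0.0608), with -0.49 in C57BL/6J (adjusted p = 0.0120) and -0.07 to -0.01 in the other strains. Tek was the 1 of 11 probe sets called for morphine by the F-test at a false discovery rate of 1% (adjusted p = 0.00138), where 8.71% of all 27212 were called. The acute difference kept its call when each array was left out in turn (largest adjusted p 0.00364), without C57BL/6J (-0.21, adjusted p = 0.0203; 6.99% of all were called), and with arrays of one treatment and replicate number as a random block (adjusted p = 0.0384). With that block the F-test of Tek gave an adjusted p of 0.0334, above the limit of 1%, so its F-test call was lost. The F-test call was also lost without C57BL/6J, an alternative chosen after the data were seen. In that alternative Tek was higher in chronic than in acute groups by 0.17 (limma adjusted p = 0.0309), where 19.4% of all were called.

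**Figure D1:**
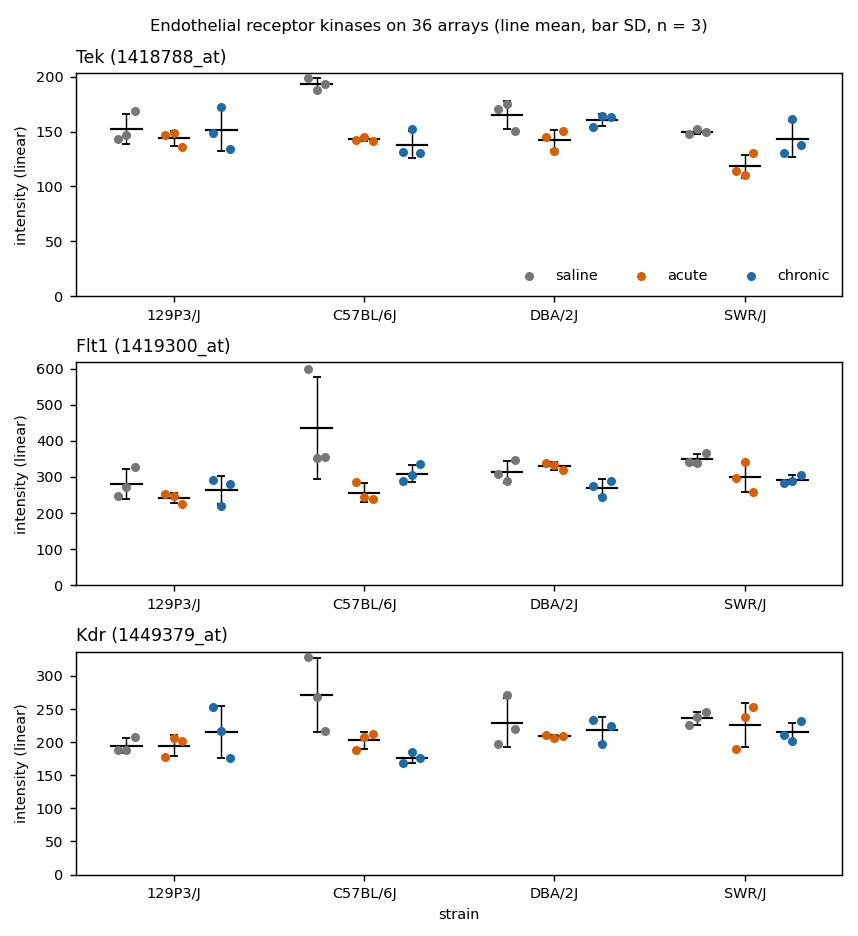
Linear signal intensity (y axis) of Tek, Flt1 1419300_at and Kdr on each of the 36 arrays, by strain (x axis) and treatment (colour); black lines are means of 3 arrays and bars the SD. In C57BL/6J the morphine arrays of all 3 genes lie below the saline arrays, and C57BL/6J saline replicate 1 is the single high point of Flt1 at 598.

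Of the VEGF receptor genes, Flt1 was called lower in the mean of the 4 strains by some of its probe sets, and Kdr was not called. Flt1 binds VEGF tightly and also gives rise to a secreted form that traps it, while Kdr carries most of the growth signal. Flt1 1419300_at, its probe set of highest signal, read 598, 353 and 355 in C57BL/6J saline, 286, 245 and 239 after acute and 288, 305 and 335 after chronic morphine. The saline arrays were above all morphine arrays, and the highest of them is the array whose Gapdh signals stand apart. In SWR/J the saline arrays (342, 339 and 365) were above all 3 chronic arrays (284, 289 and 306) but overlapped with the acute arrays (296, 342 and 259). The saline, acute and chronic arrays of DBA/2J spanned 288 to 348, 319 to 338 and 244 to 290, and those of 129P3/J 246 to 327, 226 to 253 and 220 to 292.

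Over the 4 strains Flt1 1419300_at fell by 0.27 on the log2 scale after acute morphine (SE 0.074, adjusted p = 0.0315) and by 0.25 after chronic morphine (SE 0.074, adjusted p = 0.0457). Without the C57BL/6J saline array of replicate 1 these were -0.21 (adjusted p = 0.0427) and -0.19 (adjusted p = 0.0641). Without the whole strain the acute difference was -0.12 (adjusted p = 0.419), and with the random block the calls were lost (adjusted p = 0.272 acute, 0.347 chronic). The difference within C57BL/6J was -0.72 after acute morphine (adjusted p = 0.0220) and -0.47 without that array (adjusted p = 0.239).

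The 4 probe sets of Flt1 did not move together. Flt1 1440926_at read 126, 180 and 134 in C57BL/6J saline and 69.3, 70.9 and 66.0 after acute morphine, a log2 difference of -1.08 (adjusted p = 0.0365). All 3 acute arrays lay below the detection limit, so the size is only a bound: saline was at least 1.45-fold higher, with these arrays set to the limit. Without the C57BL/6J saline array of replicate 1 the fitted difference was -1.18 (adjusted p = 0.0771). In DBA/2J the same probe set read 87.6, 106 and 132 with saline and 154, 116 and 143 after acute morphine, and the 2 groups overlapped. In SWR/J it read 128, 156 and 151 with saline and 81.8, 114 and 78.1 after chronic morphine, all below saline (-0.69, adjusted p = 0.654), while the chronic difference in C57BL/6J was -0.21. Over the 4 strains Flt1 1440926_at was -0.24 after acute (adjusted p = 0.251) and -0.39 after chronic morphine (adjusted p = 0.0494; 0.340 with the random block), and -0.45 after chronic morphine without C57BL/6J (adjusted p = 0.124). Flt1 1451756_at was -0.06 and -0.08 and passed neither test. Flt1 1454037_a_at was -0.05 after acute and 0.15 after chronic morphine, and was higher in chronic than in acute groups by 0.20 (adjusted p = 0.0466; 0.195 with the random block). The mean of the 4 probe sets was -0.16 after acute (adjusted p = 0.0629) and -0.15 after chronic morphine (adjusted p = 0.0816). Over the 36 arrays the correlation of 1454037_a_at with the other 3 was between -0.15 and 0.17, and the other 3 correlated with each other at 0.50 to 0.55, as a description over arrays that share groups.

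Kdr had intensities of 329, 268 and 216 in C57BL/6J saline, 187, 207 and 213 after acute and 169, 185 and 176 after chronic morphine, with no overlap between saline and either treatment. The chronic difference in this strain was -0.60 (SE 0.14, adjusted p = 0.0264), and -0.45 (adjusted p = 0.145) without the C57BL/6J saline array of replicate 1. In the other 3 strains the 27 arrays of Kdr lay between 175 and 271. Over the 4 strains the differences were -0.15 (adjusted p = 0.212) and -0.17 (adjusted p = 0.144).

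The junction genes passed no test of morphine. Cldn5, the main claudin of the tight junctions of brain endothelium, varied widely between arrays of one group: in SWR/J saline it read 408, 738 and 679, and in C57BL/6J saline 526, 786 and 787. This spread went with the replicate number. Saline replicate 1 lay below its group mean in all 4 strains (by -0.53 to -0.25 on the log2 scale) and acute replicate 2 above it in all 4 (0.15 to 0.24). The part of this in the differences was not tested beyond the random block (adjusted p = 0.984 acute, 0.810 chronic). After acute morphine it read 458, 541 and 452 in C57BL/6J. The mean difference of Cldn5 over the 4 strains was -0.02 after acute (95% CI -0.23 to 0.19, adjusted p = 0.948) and -0.10 after chronic morphine (95% CI -0.31 to 0.12, adjusted p = 0.626). Cdh5 1433956_at, which codes for the VE-cadherin of adherens junctions, read 136, 138 and 105 in C57BL/6J saline, 102, 89.6 and 87.7 after acute and 104, 92.3 and 105 after chronic morphine. The lowest saline value and the highest morphine values of Cdh5 nearly touched, and the differences over the 4 strains were -0.10 (adjusted p = 0.359) and -0.17 (adjusted p = 0.105). Esam, an immunoglobulin-type adhesion molecule of endothelial junctions, was the steadiest: its 36 intensities ran from 282 to 399, and its differences were 0.03 (95% CI -0.06 to 0.13) and 0.09 (95% CI -0.01 to 0.18).

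Abcb1a encodes P-glycoprotein, the efflux pump of the barrier that carries many drugs, morphine among them, back to the blood. Its 2 probe sets, both designed on the same transcript record, differed. Abcb1a 1419759_at was 0.05 (95% CI -0.06 to 0.16) after acute and -0.00 (95% CI -0.11 to 0.10) after chronic morphine. Abcb1a 1419758_at, the dimmer one, read 133, 163 and 110 in DBA/2J saline and 214, 183 and 217 after acute morphine, and 113, 109 and 75.2 in SWR/J saline and 149, 136 and 159 after acute morphine. In both strains the acute arrays lay above the saline arrays. In C57BL/6J saline (137, 258 and 181) and acute (201, 163 and 251) arrays overlapped, and chronic arrays read 160, 176 and 69.2. Over the 4 strains Abcb1a 1419758_at was 0.37 after acute morphine (SE 0.14, adjusted p = 0.127) and differed between chronic and acute groups by -0.53 (adjusted p = 0.00827; 0.0740 with the random block). The 2 probe sets correlated at 0.55 over the 36 arrays.

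**Figure D2:**
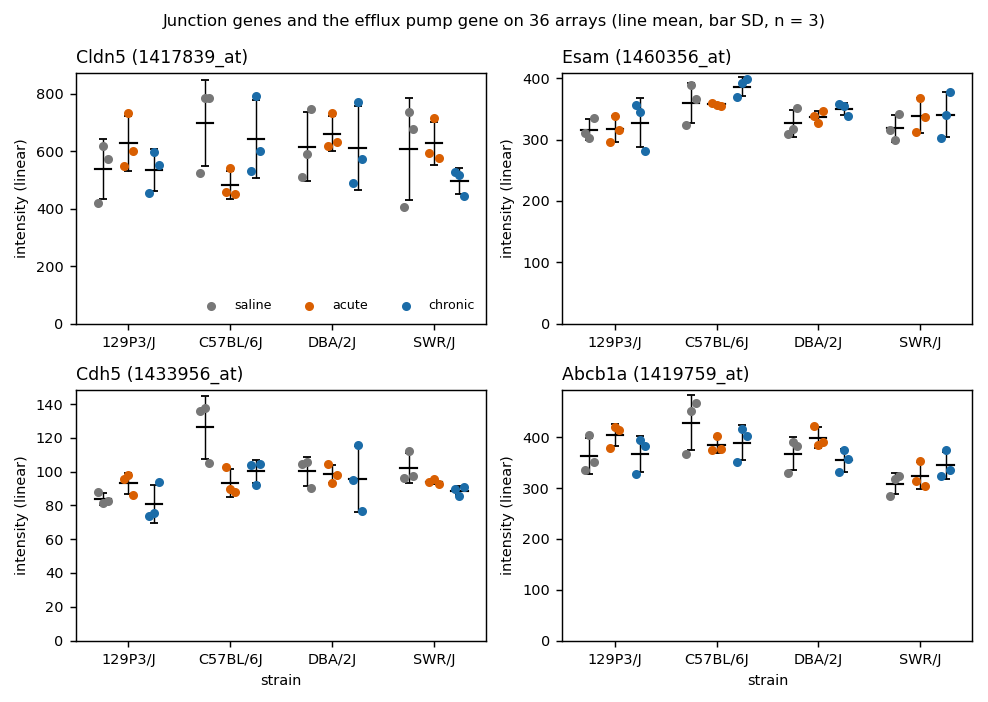
Linear signal intensity (y axis) of Cldn5, Esam, Cdh5 1433956_at and Abcb1a 1419759_at on each of the 36 arrays, by strain (x axis) and treatment (colour); black lines are means of 3 arrays and bars the SD. Esam keeps within 282 to 399 on all arrays, and Cldn5 varies between 408 and 794.

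Taking the 11 probe sets as counts, 2 were called after acute morphine, Tek and Flt1 1419300_at, both lower, where 4.69% of all probe sets were called in either direction and 2.11% lower. After chronic morphine 2 were called, both of Flt1 and both lower, where the background was 4.73% in either direction and 3.37% lower. Between chronic and acute groups 2 were called, Flt1 1454037_a_at higher and Abcb1a 1419758_at lower, where 23.4% of all were called. With the random block 1 acute call, that of Tek, and 0 of the chronic and of the chronic against acute calls were left (adjusted p = 0.347 and 0.340 for the chronic calls, 0.195 and 0.0740 for the others). The median log2 difference of the 11 was -0.06 after acute and -0.15 after chronic morphine, beside 0.01 and 0.00 over all 27212 probe sets. Within C57BL/6J 3 were called after acute (Tek and 2 of Flt1; background 0.294%) and 2 after chronic morphine (Tek and Kdr; background 1.75%). All 5 kept their call with the random block. Its limma adjusted p after acute morphine was 0.0351 for Tek, 0.0302 for Flt1 1419300_at and 0.0359 for Flt1 1440926_at. After chronic morphine it was 0.0108 for Tek and 0.0271 for Kdr. All 5 lost their call without the C57BL/6J saline array of replicate 1, although their differences stayed between -1.18 and -0.42. By the same test no member was called in 129P3/J, DBA/2J or SWR/J, where the background was 0.0147%, 0.974% and 0.0478% after acute and 0.00367%, 0.00735% and 0.0294% after chronic morphine. At an unadjusted p below 0.05 there were 2 of 11 members after acute morphine in DBA/2J (18.3% of all probe sets), 2 in SWR/J (8.15%) and 0 in 129P3/J (3.36%). After chronic morphine there were 0 in DBA/2J (3.34%), 1 in SWR/J (5.96%) and 0 in 129P3/J (4.7%).

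Whether the groups overlap describes the same arrays in another way and is no second test. In C57BL/6J 5 of the 11 probe sets had all acute arrays below all saline arrays (11% of all probe sets did), and 4 had all chronic arrays below (8.44% of all). Tek, Flt1 1419300_at, Kdr and Cdh5 1433956_at were in both sets, which share the saline arrays. Cdh5 1433956_at passed the filter on all 3 C57BL/6J saline arrays and would not have been kept without C57BL/6J. Its place in these counts is therefore only a description. In SWR/J 2 were below and 1 above after acute (3.72% and 7.24% of all), and 3 below after chronic morphine (6.99%). Cdh5 1433956_at is among those below in both, with all its SWR/J morphine arrays under the detection limit. In DBA/2J 1 was above after acute morphine (15.5% of all), and in 129P3/J there was none.

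**Figure D3:**
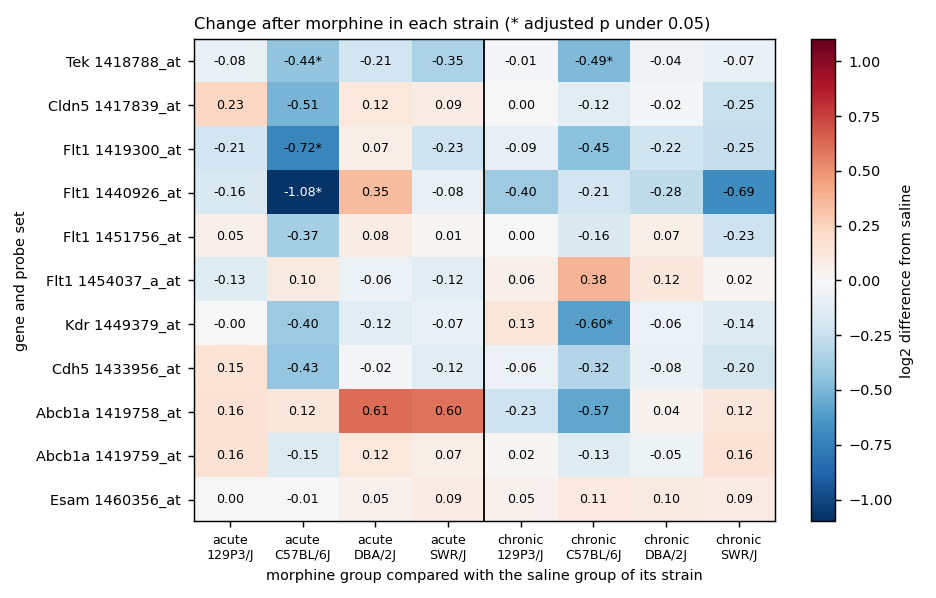
Log2 difference from saline (colour and number) of the 11 detected probe sets (rows) after acute and chronic morphine in each strain (columns); asterisks mark a limma adjusted p under 0.05. All 5 asterisks are in the C57BL/6J columns, where the members' medians were -0.40 after acute and -0.21 after chronic morphine.

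The difference between C57BL/6J and the other strains was itself tested. The interaction of strain and treatment was called for 0 of the 11 members and 0% of all probe sets by limma, and for 0 members by a classical analysis of variance. At an unadjusted p below 0.05 it held for 4 members (Tek, 2 of Flt1 and Kdr) and for 1399 of 27212 probe sets. A contrast of the C57BL/6J difference with the mean of the other 3 strains, chosen after the data were seen, gave -1.11 for Flt1 1440926_at after acute (limma adjusted p = 0.199, with the C57BL/6J acute arrays under the detection limit) and -0.45 for Tek after chronic morphine (limma adjusted p = 0.283). None of 27212 passed. A stronger response in C57BL/6J was therefore not shown for any member.

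The strains already differed with saline. C57BL/6J had the highest saline mean for each of the 7 detected genes by its representative probe set. For Cdh5 this is only a description, as the filter kept its probe set through C57BL/6J. Flt1 1454037_a_at, not a representative, went the other way (-0.33 against the mean of the other 3 strains, adjusted p = 0.0926). Against the mean of the other 3 strains, again a contrast chosen after the data were seen, C57BL/6J saline was higher by 0.31 for Tek (limma adjusted p = 0.0116), 0.43 for Flt1 1419300_at (adjusted p = 0.0252) and 0.31 for Abcb1a 1419759_at (adjusted p = 0.0216), where 7.58% of all probe sets were called. For Cdh5 1433956_at the fit gave 0.40 (adjusted p = 0.0102). This is only a description, as the probe set passed the filter on 6 C57BL/6J arrays and 5 others and would not have been kept without C57BL/6J. Without the C57BL/6J saline array of replicate 1 Abcb1a alone kept the call (0.41, adjusted p = 0.00630), and Tek was 0.29 (adjusted p = 0.0766), Flt1 0.18 (adjusted p = 0.446) and Cdh5 0.34 (adjusted p = 0.103). The same saline arrays are the reference of the morphine differences within C57BL/6J. After acute morphine the level of Flt1 1440926_at in C57BL/6J minus that of the other strains was -0.81 (limma adjusted p = 0.0114, where 3.45% of all were called). With the C57BL/6J arrays set to the detection limit it was 1.21-fold lower. This is not a strict bound, as only 6 of the 9 arrays of the other strains were above the limit. No other member was called.

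**Figure D4:**
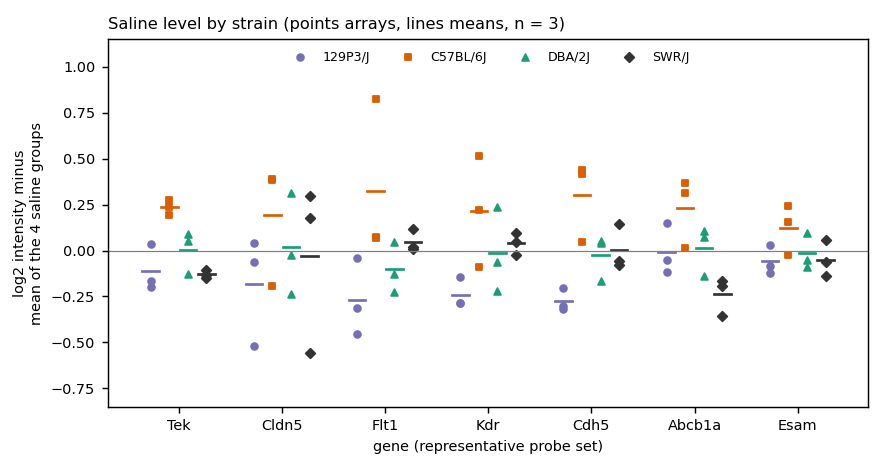
Log2 intensity of each saline array minus the mean of the 4 saline groups (y axis) for the representative probe set of the 7 detected genes (x axis), with strains by colour and marker and lines at the means of 3 arrays. The C57BL/6J mean is the highest for each gene, and its spread is widest for Flt1, with 1 array at 0.83. For Cdh5 this is only a description, as the filter kept its probe set through C57BL/6J.

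In pairs of saline groups 6 differences were called, 4 of them between 129P3/J and C57BL/6J: -0.34 for Tek (adjusted p = 0.0334), -0.59 for Flt1 1419300_at (adjusted p = 0.0145), -0.46 for Kdr (adjusted p = 0.0487) and -0.58 for Cdh5 1433956_at (adjusted p = 0.00279), beside a background of 4.6%. Cdh5 1433956_at passed the filter on 6 C57BL/6J, 4 DBA/2J, 1 SWR/J and 0 129P3/J arrays. It would not have been kept without C57BL/6J, so its strain differences are descriptions. With the 129P3/J arrays (73.5 to 97.7 over all treatments) at the detection limit, C57BL/6J saline was at least 1.26-fold higher. The other called differences were between C57BL/6J and SWR/J, 0.37 for Tek (adjusted p = 0.0222) and 0.47 for Abcb1a 1419759_at (adjusted p = 0.00458), beside 4.62%. Of these 6, the difference of Abcb1a remained called without the C57BL/6J saline array of replicate 1. That of Cdh5 did so too, but it is again only a description. Abcb1a 1419759_at was the 1 member called for strain by the F-test (adjusted p = 0.00235; 13.2% of all). Its 9 intensities were 285 to 375 in SWR/J with a median of 324, 331 to 423 in DBA/2J with a median of 383, 327 to 420 in 129P3/J with a median of 382 and 351 to 469 in C57BL/6J with a median of 402. SWR/J was thus lowest, and over the 3 treatments C57BL/6J exceeded it by 0.30 (adjusted p = 6.91e-04), 129P3/J by 0.21 (adjusted p = 0.0184) and DBA/2J by 0.20 (adjusted p = 0.0340). No difference among the other 3 strains was called. The difference from C57BL/6J kept its call when each array was left out (0.28 to 0.33), and 1419758_at went the same way, with 0.54 (adjusted p = 0.0290).

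Over the 3 treatments 129P3/J was below C57BL/6J for Flt1 1419300_at (-0.30, adjusted p = 0.0186) and Esam (-0.20, adjusted p = 0.0141), beside 9.65% of all probe sets. For Cdh5 1433956_at the fit gave -0.30 (limma adjusted p = 0.00384), which is only a description. With the 129P3/J arrays set to the detection limit C57BL/6J was 1.06-fold higher. This is not a strict bound, as only 6 of the 9 C57BL/6J arrays were above the limit. Tek was higher in C57BL/6J than in SWR/J by 0.20 (adjusted p = 0.0180; background 10.3%) and in DBA/2J than in SWR/J by 0.19 (adjusted p = 0.0270; background 8.02%). The background of the comparison of 129P3/J with SWR/J, in which Abcb1a was the 1 member called, was 8.1%.

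Further genes of the vessel wall were taken from lists, whose calls stand beside 2.59% of all probe sets called higher and 2.11% lower after acute morphine. After chronic morphine these shares were 1.36% and 3.37%. Among 11 measured ligands, co-receptors and signal partners of the VEGF and angiopoietin receptors, 1 was called after acute morphine and the same 1 after chronic morphine: Nrp1, a co-receptor of Kdr, was -0.33 (adjusted p = 7.70e-04; 0.0433 with the random block) and -0.24 (adjusted p = 0.0119; 0.201 with the random block). The ligand genes Vegfa, Angpt1 and Angpt2, named for their role and not by the rule for other lists, were not called, with 0.03, 0.21 and 0.05 after acute morphine. Of 10 junction genes beside the members none was called after acute morphine, where Ctnnb1, the catenin of highest signal among them, was 0.07. Cldn12, another claudin of this list, was -0.29 after chronic morphine (adjusted p = 0.00315; 0.0912 with the random block). The median differences of these lists were 0.03 and 0.05 after acute and 0.02 and -0.04 after chronic morphine.

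Of 17 measured transporters of the barrier, 3 were called higher and 1 lower after acute morphine, with a median of 0.11. The glucose transporter Slc2a1 was 0.46 (adjusted p = 3.48e-05), the lipid transporter Mfsd2a 0.70 (adjusted p = 5.90e-05) and the efflux pump Abcc4 0.61 (adjusted p = 0.00202), and each was called with the random block as well (0.00274, 0.00153 and 0.0484 as adjusted p). Slc16a1, a monocarboxylate carrier named here after its value was seen, was -0.28 (adjusted p = 0.0370; 0.306 with the random block). After chronic morphine 1 was higher, Slc2a1 with 0.27, and 2 were lower, Slc16a1 with -0.45 and Slc16a4 with -0.41, and these 3 calls were lost with the random block (adjusted p = 0.168, 0.0771 and 0.211). Slc2a1 and Mfsd2a are also made by other brain cells.

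Of 27 other endothelial genes, 3 were higher and 1 was lower after acute morphine, with a median of 0.02. Ctla2a was 0.62 (adjusted p = 3.43e-06; 3.01e-04 with the random block). Adgrl4, an adhesion receptor, was 0.24 (adjusted p = 0.0202; 0.151 with the random block), Robo4, a guidance receptor named after its value was seen, was 0.27 (adjusted p = 0.0348; 0.216 with the random block), and Mcam, an adhesion molecule of endothelial cells and pericytes, was -0.46 (adjusted p = 0.0158; 0.177 with the random block). After chronic morphine Ramp2 was 0.19 and Mcam -0.54, and both lost their call with the random block (0.244 and 0.118). The paper on these samples names Mcam and Ctla2a, so their calls are not independent evidence. Of 13 pericyte and vessel wall genes none was called after acute morphine, where Acta2, the smooth muscle actin and the gene of highest signal, was -0.13. Pdgfrb, a growth factor receptor of pericytes, was -0.36 after chronic morphine (adjusted p = 0.0419; 0.286 with the random block).

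**Figure D5:**
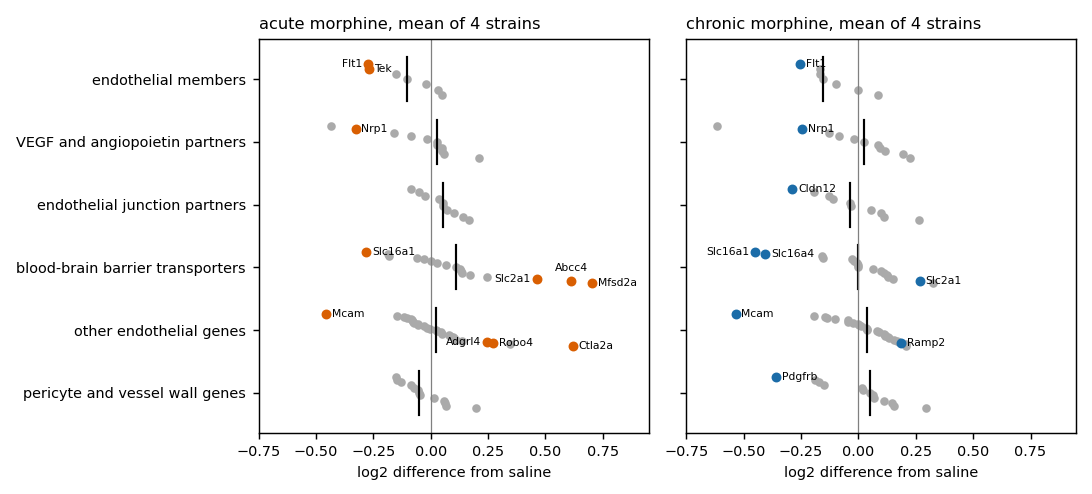
Log2 difference from saline (x axis), as the mean of 4 strains, of each measured gene of 6 vascular lists (y axis) after acute (left) and chronic morphine (right); coloured, named points have a limma adjusted p under 0.05 and black lines are medians. The called members lie left of 0, while called transporters and other endothelial genes lie on both sides.

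Markers of other cells were set beside the members. Their calls over the 4 strains stand beside 2.59% of all probe sets called higher and 2.11% lower after acute morphine. After chronic morphine these shares were 1.36% and 3.37%. In C57BL/6J the mean log2 level of the 7 member genes was 8.22 to 8.32 on saline, 7.87 to 7.93 on acute and 7.91 to 8.07 on chronic arrays. Cdh5, which the filter kept through C57BL/6J, is among the 7. The 7 measured oligodendrocyte genes moved with the member mean in part, at 11.10 to 11.41, 10.99 to 11.04 and 10.76 to 11.12. The 27 other endothelial genes did not separate (7.65 to 7.83, 7.65 to 7.74 and 7.66 to 7.75), nor did the 13 pericyte and vessel wall genes (8.18 to 8.30, 8.14 to 8.23 and 8.21 to 8.28) or the 8 microglia genes (8.86 to 9.29, 8.91 to 9.03 and 8.88 to 9.23). Over the 4 strains oligodendrocyte genes had a median difference of -0.23 after chronic morphine, with 3 of 7 called lower. These were Cnp with -0.25, Mag with -0.23 and Ermn with -0.30 (adjusted p = 0.0950, 0.220 and 0.231 with the random block, so the calls were lost). Cortical excitatory neuron genes had a median of 0.63, with 2 of 6 called higher, Neurod2 with 0.59 and Nrn1 with 0.60 (adjusted p = 0.0983 and 0.172 with the block). After acute morphine neither list had a call, and Mbp was -0.04 and Rasgrf2 0.17. Of 7 medium spiny neuron genes none was called after acute morphine (Penk was -0.06), and 2 were lower after chronic morphine, Drd2 with -0.27 and Rgs9 with -0.18 (adjusted p = 0.0519 and 0.183 with the block). Of 8 microglia genes 2 were lower after acute morphine, Cx3cr1 with -0.52 and Aif1 with -0.33 (adjusted p = 0.0106 and 0.272 with the block), and none was called after chronic morphine (Csf1r was -0.08). Of 8 astrocyte genes Gjb6 was higher after acute (0.51, adjusted p = 0.00174 with the block) and after chronic morphine (0.31, adjusted p = 0.120 with the block), while Aqp4 with -0.30 and Gja1 with -0.21 were lower after chronic morphine (adjusted p = 0.181 and 0.214 with the block). In these differences from saline over the 4 strains no call was made among 5 meningeal and vascular fibroblast genes (Igf2 was 0.02 and 0.01), 4 choroid plexus genes (Ttr was -0.13 and -0.31) or 4 red blood cell genes (Alas2 was 0.01 and -0.18). Genes of red blood cells were near the detection limit on all arrays (mean log2 level 6.16 to 7.31). The part of these cell mixtures in the members' differences was not tested.

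Genes whose pattern was most like that of the members were taken from all detected probe sets with 1 gene symbol, by the correlation with the mean standardized profile of the 7 genes over 36 arrays. The 10 most alike were Plekhh1 (0.83), Ncan, Phldb1, Cnp, Bin1, Desi1, Ccnd1, Mcam, Prr18 and Litaf (0.76). Mcam, at 0.77, was the 1 of them on an endothelial list, and Cnp, at 0.79, is on the list of oligodendrocyte genes. The lists are short, and genes outside them were not assigned to a cell type. Once the group means were taken out, the correlations of the 10 were 0.37 (Prr18) to 0.65 (Cnp), with 0.52 for Plekhh1 and 0.38 for Mcam. For single members the 2 most alike were Aspa and Pcdh18 for Tek (both 0.68), Trap1 and Extl3 for Cldn5 (0.81 and 0.79), Tmcc3 and Tanc2 for Flt1 (0.82 and 0.80), Tmem51 and Rab36 for Kdr (0.66 and 0.63), Plekhh1 and Garre1 for Cdh5 (0.74 for both), Armcx1 and Slco1a4 for Abcb1a (both 0.81) and Efhd1 and Gm10037 for Esam (0.69 and 0.68). Slco1a4 is an organic anion transporter of the same barrier.

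Over the 36 arrays most members did not follow each other closely. Between different genes the highest correlations over 36 arrays were 0.65 for Cldn5 with Flt1 1440926_at and 0.57 for Kdr with Flt1 1451756_at. Tek correlated with Kdr at 0.43, with Flt1 1419300_at at 0.30 and with Cldn5 at 0.15. Cldn5 and Abcb1a 1419759_at stood at 0.53, and at 0.77 once the group means were taken out. Flt1 1440926_at and Abcb1a 1419759_at stood at 0.16, and at 0.64 in the same way. Like Cldn5, Abcb1a 1419759_at lay below its group mean on saline replicate 1 in all 4 strains (by -0.22 to -0.11). The part of the replicate number in these correlations was not tested. These values are descriptions over arrays that share groups.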

How the data were processed

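The deposited values are intensities on a linear scale for 45101 probe sets, 64 of them controls. The authors had obtained them in dChip, whose model uses both perfect match and mismatch probes, and had normalized them between arrays; their floor is 6.69 and array medians run from 119 to 133. Log2 was taken, and probe sets with an intensity above 99.7 on at least 9 of 36 arrays were kept. Group means (12, with 24 residual degrees of freedom) were fitted with limma 3.58.1 under R 4.3.3. F-tests were adjusted by Benjamini-Hochberg at 1% and contrasts at 0.05, over all 27212 kept probe sets. The random block used duplicateCorrelation (statmod 1.5.0). The fit was tested on simulated data with independent arrays, which cannot show the effect of arrays that deviate together. Probe sets were named from the platform annotation and promoters from RefSeq. Figures used Python 3.11.15 with matplotlib 3.10.9, pandas 2.3.3 and numpy 2.4.6.

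The members and all lists were chosen with earlier results of these data known. The brightest detected probe set stands for a gene. Of each other list, up to 3 called genes of smallest p were named per treatment, or the gene of highest signal where none was called. The lists are the members, VEGF and angiopoietin partners, junction partners, barrier transporters, other endothelial, pericyte, meningeal and vascular fibroblast, red blood cell, choroid plexus, microglia, astrocyte, oligodendrocyte, medium spiny neuron and cortical excitatory neuron genes. The number of arrays limits the precision. Alternatives covered the filter, pseudocount, normalization, moderation, array weights, replicate blocks, thresholds and the omission of arrays.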

Additional observations from a re-analysis of the deposited data

How the results depend on the processing

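The counts are of detected member probe sets, first as reported: 1 called for strain, 1 for morphine, 0 for the interaction, 2 acute, 2 chronic and 2 chronic against acute over the strains, 3 acute and 2 chronic within strains, and 6 saline pairs and 9 pairs of strain means. With no filter they were 1 acute, 0 chronic, 1 chronic against acute, 0 acute within strains and 1 chronic within strains, where more probe sets enter the adjustment. A pseudocount of 16 left 1 chronic call, and median centring left 1 of chronic against acute. A classical analysis of variance left 1 chronic call and 1 of chronic against acute, and moderation with a trend left 1 of chronic against acute. Array weights gave 4 for strain, 4 for morphine, 4 chronic, 4 chronic against acute, 5 acute and 1 chronic within strains, and 16 pairs of strain means. An F-test limit of 5% with contrasts at 0.01 gave 5 for strain, 4 for morphine, 1 acute, 0 chronic, 1 chronic against acute, 0 and 0 within strains, 2 saline pairs and 2 pairs of strain means. Fits of only the groups compared gave 0 chronic, 1 chronic against acute, 0 acute and 0 chronic within strains, and 0 saline pairs. Without C57BL/6J, an alternative chosen after seeing the data, there were 0 for morphine, 1 acute and 0 chronic. Leaving out each array in turn gave 1 to 2 for strain, 1 to 2 for morphine, 1 to 2 acute, 0 to 3 chronic, 1 to 3 chronic against acute, 0 to 3 acute and 0 to 4 chronic within strains, 3 to 9 saline pairs and 5 to 12 pairs of strain means. In these settings, where no cause is named, the cause was not tested.

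Replicate numbers were checked for pairing. Arrays of the same treatment and number correlated in their deviations from the group means at 0.26 on average across strains (43 of 54 pairs over 0.1), and arrays of the same strain and number across treatments at 0.03 (14 of 36 pairs), so the numbers were not taken as pairs. With a random replicate block of treatment and number (consensus correlation 0.24) there were 3 for strain, 0 for morphine, 1 acute, 0 chronic, 0 chronic against acute and 14 pairs of strain means. The 5 calls of morphine within C57BL/6J were kept. A fixed block of the number kept every count within 1.5 times. Of single values, none changed sign while called. Filtering on mean signal and renewed quantile normalization moved no count by over 1.5 times.

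The chronic differences of Flt1 stood close to the threshold: 1419300_at lost its call in 26 and 1440926_at in 24 of 36 omissions of an array, and 1454037_a_at lost that of chronic against acute in 19. The acute call of Flt1 1419300_at was lost in 9 of 36, with differences of -0.30 to -0.21. Within C57BL/6J, the acute call of Tek was lost in 9, of Flt1 1419300_at in 3 and of 1440926_at in 6, and the chronic call of Tek in 3 and of Kdr in 4. The difference of Kdr between the saline groups of 129P3/J and C57BL/6J was lost in 28. Intensities near the detection limit, as for Cdh5 and Flt1 1440926_at, are the least precise. All groups within a strain hold 3 pools.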
